A study of Mus musculus with 6 samples.

Results

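The genes described here are those of the lysosome and of the vacuolar proton pump (V-ATPase) in mouse inner medullary collecting duct (IMCD) cells, an epithelial culture model of the innermost kidney collecting duct. Members were all genes whose symbol starts with Atp6v, together with 32 listed lysosome genes, read from probe sets that the platform annotation assigns to exactly 1 symbol and, where a gene had several, from the one with the highest mean. A value was found for 53 members, 22 Atp6v symbols and 31 listed genes, of the 22180 genes with a value in the whole table. Glb1 has no value because its probe set also lists Tmppe. Atp6v0c, the proteolipid ring subunit, has no value either, as no probe set carries its symbol, alone or with others.

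The cells carried a lentivirus that encodes GFP and ILK (integrin-linked kinase, a focal adhesion scaffold) from 1 bicistronic vector, and both groups over-express ILK. One group, of 3 arrays, received wild-type ILK, and the other, also of 3 arrays, received the missense variant ILK-T173I. Every culture was given EGF at 20 ng/ml for 15 minutes and collected after 1 further hour, so the comparison concerns T173I against wild type under EGF, and no array shows untreated or untransduced cells. The labels name the cells as stable lines without saying how many were made; with 1 line per group, line and variant cannot be told apart. The p-values measure only the spread between these arrays. No probe set belongs to Ilk alone, so the level of the introduced RNA was not read.

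Lysosomes degrade proteins, lipids and sugars with hydrolases that work at acid pH. The acid is made by the V-ATPase, in which a cytosolic V1 sector hydrolyses ATP and turns a membrane V0 sector that carries protons inward. Most cells build the pump from housekeeping subunits, while the acid-secreting intercalated cells of the collecting duct also use the tissue-restricted forms Atp6v1b1, Atp6v0a4, Atp6v0d2 and Atp6v1g3. TFEB and TFE3, basic helix-loop-helix factors, are known to activate lysosome and pump genes through CLEAR elements, which contain the E-box letters CACGTG.

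Promoter sequences were read first, because their letters do not depend on the arrays. In RefSeq windows of 300 bases on GRCm38.p6, from 250 before to 50 after each start, CACGTG was searched on both strands (it is its own reverse complement), and so was TCACGTGA, which contains it. A window was held for 42 of the 53 members. CACGTG was found for 10 of these 42 members (23.8%), against 2187 of 27025 genes in the promoter table (8.09%). TCACGTGA was found for 6 of the 42 (14.3%), against 304 of the 27025 genes (1.12%). Both sequences were chosen because CLEAR elements are known from lysosome and pump genes. The shares are therefore a description and were not tested. The 6 were Atp6v0d1, Atp6v0e, Atp6v1a, Ctsa, Ctsd and Mcoln1, and the other 4 were Atp6v0b, Ctsl, Gaa and Lamp1. Lamp1 held 4 copies of CACGTG, a number reached by 8 of all 32851 windows (0.0244%). CACGTG was held by 4 of 8 housekeeping subunits, 4 of 14 hydrolases and 2 of 8 membrane proteins with a window. The 3 intercalated-cell subunits with a window, Atp6v1b1, Atp6v0a4 and Atp6v1g3, held neither sequence. The same was true of the 5 Atp6v symbols outside the housekeeping and intercalated-cell sets, and of Npc2, Grn, Tfeb and Tfe3. Absence is therefore not particular to the intercalated-cell forms.

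The stretches upstream of the start that hold the letters are shown for 6 members with a single window, 5′ to 3′ on the gene's strand, to let the motif copies be compared between pump, hydrolase and membrane protein genes; capitals mark CACGTG, or TCACGTGA where the flanking bases match.
Lamp1, chr8:13159074-13159160, plus strand: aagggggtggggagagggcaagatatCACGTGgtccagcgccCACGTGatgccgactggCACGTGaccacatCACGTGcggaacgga
Mcoln1, chr8:3500422-3500493, plus strand: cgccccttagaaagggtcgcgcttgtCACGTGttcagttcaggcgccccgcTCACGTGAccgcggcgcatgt
Atp6v0b, chr4:117887330-117887391, minus strand: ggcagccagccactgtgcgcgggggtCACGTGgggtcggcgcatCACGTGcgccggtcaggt
Atp6v1a, chr16:44139357-44139416, minus strand: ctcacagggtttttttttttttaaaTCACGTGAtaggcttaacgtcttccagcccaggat
Gaa, chr11:119267797-119267856, plus strand: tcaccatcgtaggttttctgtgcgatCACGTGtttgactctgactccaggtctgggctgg
Ctsd, chr7:142387906-142388077, minus strand: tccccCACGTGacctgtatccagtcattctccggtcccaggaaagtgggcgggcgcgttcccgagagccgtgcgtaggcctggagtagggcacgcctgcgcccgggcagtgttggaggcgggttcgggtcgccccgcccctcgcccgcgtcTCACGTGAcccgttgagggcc

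The letters lay within 61 bases of the start in Lamp1 and between 45 and 71 bases before it in Mcoln1, the lysosomal calcium channel. Both copies in Atp6v0b, a proteolipid of the V0 sector, lay within 36 bases of the start. A match describes the sequence only; whether any factor binds there was not measured.

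All values below are log2 signals made by the authors with RMA, where a difference of 1 is 2-fold. Genes in the dimmest 40%, whose mean was at most 5.37, were not tested and are called dim here, which left 13308 genes and 49 members. Signals of different genes come from different probes, so a level is set against this limit and not against the amount of another RNA. Array medians ran from 5.45 to 5.52, the highest being that of T173I replicate 2. The median SD of a gene over 3 arrays was 0.1 in wild type and 0.16 in T173I for all genes tested, and 0.11 and 0.21 for the tested members. The cells carried the epithelial markers of the collecting duct, all 9 of which were tested, with means from 7.59 to 11.46; averaged over the list they read 9.87 to 9.99 on the wild-type arrays and 10.19 to 10.28 on the T173I arrays. The keratins Krt19 (1.62), Krt8 (0.64) and Krt18 (0.44) had the largest differences of the list, and the other 6 genes lay between -0.24 (Pax8) and 0.12 (Hoxb7). In bulk RNA, fewer cells of a type and less RNA per cell cannot be told apart. Of 13 intercalated-cell markers outside the 4 listed subunits, 8 were dim, among them Slc26a4 (4.61), Aqp6 (4.53) and Kit (4.97). The 5 tested ones were Foxi1 (6.36), Slc4a1 (5.73), Slc4a9 (5.43), Rhcg (5.73) and Car2 (8.35). Of 12 principal-cell markers 5 were dim. The 7 tested ones were Tfcp2l1 (7.62), Scnn1g (7.02), Gata3 (6.69), Avpr2 (6.65), Scnn1a (6.28), Hsd11b2 (6.24) and the water channel Aqp2 (6.09). Scnn1g (-1.19), Gata3 (-0.78) and Avpr2 (-0.30) had the most negative differences of these. The others lay between -0.076 (Hsd11b2) and 0.041 (Aqp2).

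Housekeeping pump subunits were well above the limit for testing, and the intercalated-cell forms were near or under it. Of the 13 housekeeping subunits with a value, 12 had means between 8.63 (Atp6v1h) and 10.61 (Atp6v0a1); Atp6v1f, at 6.02, was the exception. Of the 4 intercalated-cell subunits, Atp6v0d2 (3.24) and Atp6v1g3 (4.92) were dim, Atp6v0a4 (5.41) lay just above the limit, and Atp6v1b1 was at 5.76. The plot of paired subunit forms shows this on the arrays of both groups.

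**Figure D1:**
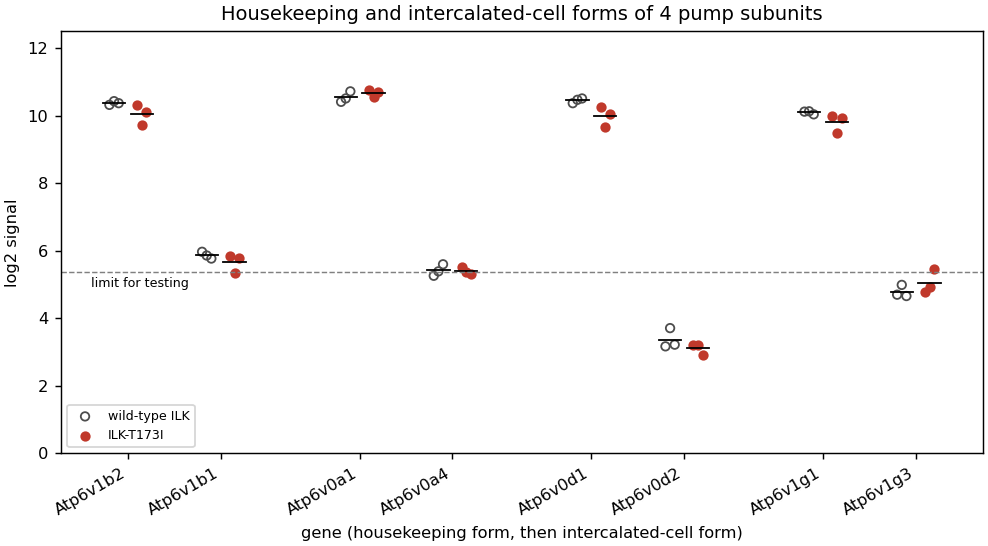
Log2 signal (vertical axis) of the housekeeping and the intercalated-cell form of 4 pump subunits on each of the 6 arrays; open grey points are wild-type ILK, filled red points ILK-T173I, black lines the group means, and the dashed line the limit of 5.37 under which genes were not tested. The housekeeping forms lie between 9.50 and 10.75, and the intercalated-cell forms between 2.91 and 5.97.

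For the B subunit, which binds nucleotide in V1, the housekeeping gene Atp6v1b2 read 10.32, 10.43 and 10.37 on wild-type replicates 1 to 3, and 10.33, 9.72 and 10.11 on T173I replicates 1 to 3. The groups overlapped through T173I replicate 1, and replicate 2 was the lowest. The difference of Atp6v1b2 was -0.32. Its second probe set, at a mean of 7.22 and not used, had -0.18, and the mean of its probe sets gave -0.25. The intercalated-cell gene Atp6v1b1 read 5.97, 5.86 and 5.77 in wild type and 5.85, 5.33 and 5.78 in T173I. In this gene only T173I replicate 2 lay below the wild-type range. The difference of Atp6v1b1 was -0.21 (95% interval -0.57 to 0.15; limma adjusted p = 0.61), and it was -0.051 without T173I replicate 2.

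For the a subunit, which anchors the pump in its membrane, Atp6v0a1 read 10.41, 10.51 and 10.72 in wild type and 10.75, 10.54 and 10.71 in T173I. None of its T173I arrays lay below the wild-type range. Atp6v0a4 read 5.26, 5.39 and 5.60 in wild type and 5.51, 5.38 and 5.32 in T173I, so its groups overlapped fully. Its difference of -0.012 had an interval of -0.28 to 0.26. Atp6v0a2, the form known from the Golgi, had a difference of -0.25 (interval -0.50 to 0.0021).

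For the d subunit, which links the central stalk to the V0 ring, Atp6v0d1 read 10.37, 10.47 and 10.51 in wild type and 10.26, 9.67 and 10.05 in T173I. All 3 T173I arrays were lower than all wild-type arrays. Its difference, -0.46 (interval -0.83 to -0.087; limma adjusted p = 0.46), was the most negative of the Atp6v genes tested, and without T173I replicate 2 it was -0.30. The dim form Atp6v0d2, also a gene of osteoclasts, read 3.17, 3.71 and 3.22 in wild type and 3.22, 3.22 and 2.91 in T173I.

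For the G subunit of the outer stalk, Atp6v1g1 read 10.12, 10.13 and 10.04 in wild type and 9.98, 9.50 and 9.93 in T173I, again without overlap. Its other 2 probe sets, which were not used, had differences of -0.26 and -0.29 against -0.29 on the one used, but overlapped between the groups. Atp6v1g3 was dim on both sides, at 4.70, 4.99 and 4.66 in wild type and 4.79, 4.93 and 5.46 in T173I. Only T173I replicate 3 lay above the others.

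Most housekeeping subunits were lower in T173I by small amounts, and no single one passed after adjustment. The group as a whole was not tested. Of 13, 11 had negative differences, with a median of -0.25, beside 52.6% negative and a median of -0.011 over all genes tested. All 8 V1 subunits were negative, from -0.32 (Atp6v1b2) to -0.069 (Atp6v1f), and of the 5 V0 subunits 3 were, with Atp6v0a1 (0.12) and Atp6v0e (0.13) on the other side. Without T173I replicate 3, 7 of the 8 V1 subunits were negative. In limma's test 0 members passed an adjusted p of 0.05, and the same was true of all 13308 genes (0%). At an unadjusted p under 0.05, 3 of the 13 were lower (Atp6v0d1, Atp6v1d and Atp6v1h) and none higher, where 5.31% of all genes tested were lower and 4.88% higher.

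Atp6v1d, the central rotor shaft of V1, read 10.55, 10.57 and 10.72 in wild type and 10.44, 10.10 and 10.37 in T173I. Its difference was -0.31 (interval -0.58 to -0.036; limma adjusted p = 0.48). Atp6v1h, the regulatory subunit of V1, read 8.79, 8.65 and 8.83 in wild type and 8.5, 8.40 and 8.62 in T173I, a difference of -0.25 (interval -0.48 to -0.023; limma adjusted p = 0.48). In both genes every T173I array lay below every wild-type array. The same held for 6 of the 13 housekeeping subunits, the others being Atp6v0d1, Atp6v1c1, Atp6v1e1 and Atp6v1g1, beside 7.95% of all genes tested.

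The V1 subunits were below wild type on all 3 T173I arrays, in different amounts. Averaged over the 8 and set against the wild-type mean, they stood at -0.11, -0.39 and -0.2 on T173I replicates 1, 2 and 3, whereas wild-type arrays spanned -0.047 to 0.056. The 5 V0 subunits averaged -0.051, -0.23 and -0.1 on the same T173I arrays, against -0.11 to 0.11 in wild type, so that only replicate 2 was outside the wild-type range. Without T173I replicate 2 the median of the 13 housekeeping subunits was -0.15, and 11 of 13 were negative; without T173I replicate 3 it was -0.29, with 10 of 13 negative, and without wild-type replicate 3 it was -0.18. Over all genes tested the array means relative to wild type were 0.0062, -0.04 and -0.0082 on T173I replicates 1 to 3.

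**Figure D2:**
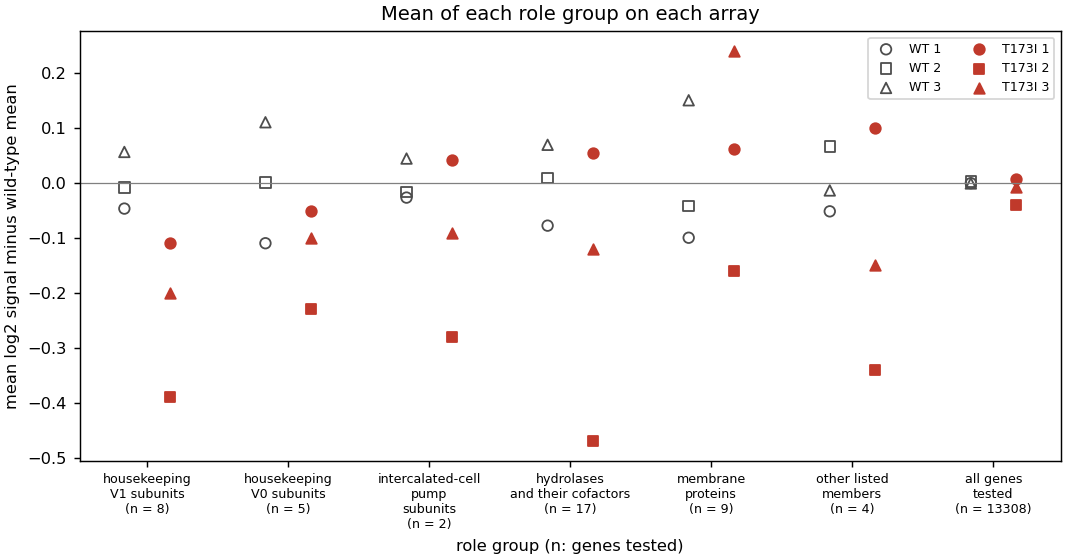
Mean over the tested genes of 6 groups of members, and of all genes tested, on each array, as log2 signal minus the group's wild-type mean (vertical axis); open grey symbols are wild-type arrays, filled red symbols T173I arrays, and the shape gives the replicate number. T173I replicate 2 is the lowest array in each group plotted, at -0.39 for V1 and -0.47 for hydrolases, and for V1 all 3 T173I arrays lie below the wild-type arrays.

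The hydrolases and their cofactors had a similar median but another spread over the arrays. Of 17 tested, 13 had negative differences, with a median of -0.22. Their mean on T173I replicate 1 was 0.055, a value the wild-type arrays also reached (-0.078 to 0.069), and it was -0.47 on replicate 2 and -0.12 on replicate 3. On T173I replicate 1, 3 of 17 hydrolases lay below the wild-type range, against 8 of 13 housekeeping pump subunits and 24.8% of all genes tested. Without T173I replicate 2 the median of the hydrolases was -0.065. Ctss, the cathepsin of antigen-presenting cells, was dim at 4.59.

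Gaa, the acid glucosidase that degrades lysosomal glycogen, read 8.90, 9.01 and 9.03 in wild type and 8.82, 7.24 and 8.21 in T173I. All 3 T173I arrays were below the wild-type arrays, replicate 1 only narrowly. Its difference, -0.89 (interval -1.76 to -0.011; limma adjusted p = 0.49), corresponded to 1.85-fold and was -0.46 without T173I replicate 2. Gaa was the only one of the 17 hydrolases lower at an unadjusted p under 0.05, beside 5.31% of all genes tested.

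Lipa, the acid lipase of cholesteryl esters, read 11.00, 11.01 and 11.40 in wild type and 11.13, 10.24 and 10.37 in T173I. Replicate 1 lay inside the wild-type range and the other T173I arrays below it; the difference was -0.56 (interval -1.15 to 0.035). Hexa, the alpha chain of beta-hexosaminidase, read 8.67, 8.86 and 9.29 in wild type and 8.77, 7.70 and 8.74 in T173I, so that its difference of -0.54 rested on replicate 2 and was -0.19 without it. Psap, precursor of the saposins that help lipid hydrolases, read 11.62, 11.63 and 11.61 in wild type and 11.71, 10.93 and 11.39 in T173I.

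The remaining negative hydrolases ran from -0.35 (Ctsa, the protective protein of sialidase) to -0.061 (Ctsb, a cysteine protease). Between them were Tpp1, a tripeptidyl peptidase (-0.31), Galns, a keratan sulfate sulfatase (-0.30), Ctsz, a carboxypeptidase (-0.22), Ppt1, a thioesterase (-0.22), and the sialidase Neu1 (-0.19). Ctsl, a cysteine protease, had -0.14 and Asah1, the acid ceramidase, -0.087. None of these passed at an unadjusted p under 0.05.

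Ctsd, the major aspartic protease, read 11.07, 11.28 and 11.27 in wild type and 11.47, 11.27 and 11.35 in T173I. It was positive by 0.16 (interval -0.076 to 0.40), with T173I replicate 2 inside the wild-type range. Gusb, the beta-glucuronidase, and Ctsh, an aminopeptidase, were also positive, at 0.06 and 0.21, with overlapping groups.

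Prcp stood apart from the other hydrolases. It encodes prolylcarboxypeptidase, which removes the last residue of peptides such as angiotensin II after proline. It read 8.98, 8.95 and 8.95 in wild type and 9.55, 9.52 and 9.77 in T173I. Every T173I array, replicate 1 included, was above every wild-type array, and the 3 wild-type values were close together (SD 0.015). The difference was 0.65 (1.57-fold; interval 0.43 to 0.88; limma adjusted p = 0.43), and it ranged from 0.58 to 0.70 when single arrays were left out.

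**Figure D3:**
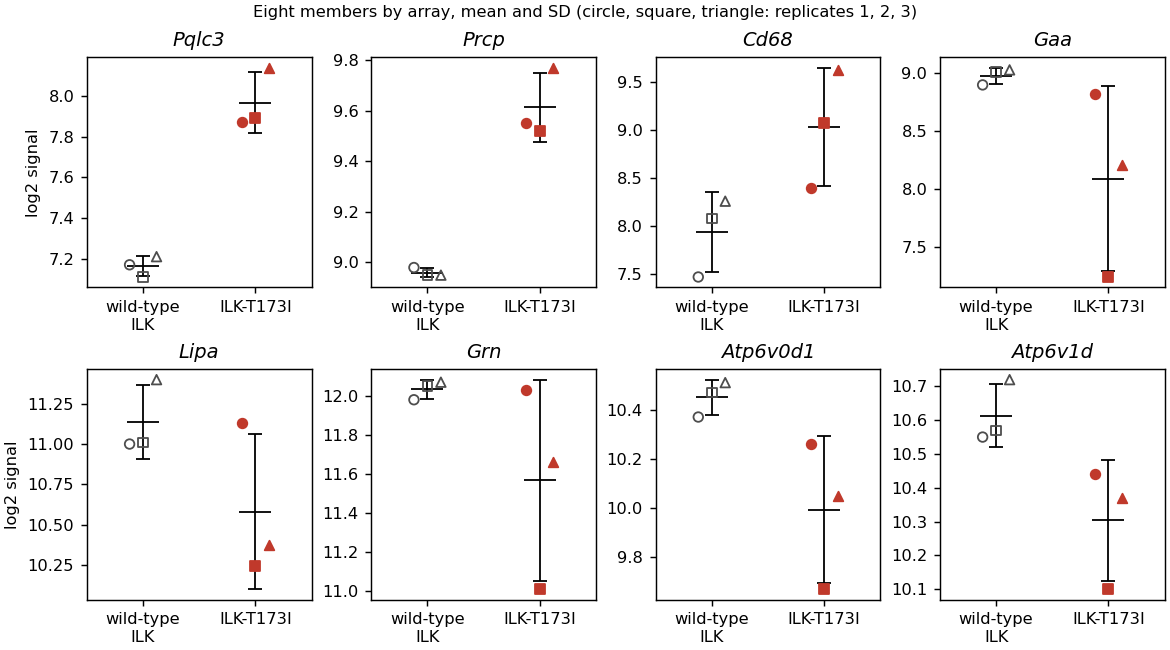
Log2 signal (vertical axis, a separate scale in each panel) of 8 members on each array; open grey symbols are wild-type ILK, filled red symbols ILK-T173I, and horizontal bars with whiskers the mean ± SD of 3 arrays. Pqlc3 and Prcp are higher on all 3 T173I arrays by similar amounts, whereas Gaa, Lipa and Grn are near wild type on T173I replicate 1 and lowest on replicate 2.

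Among the membrane proteins 7 of 9 had negative differences, and the 2 positive ones were the largest of the group. Pqlc3, a multispanning protein with PQ-loop repeats, read 7.17, 7.11 and 7.21 in wild type and 7.87, 7.89 and 8.14 in T173I. The T173I arrays lay clear of the wild-type arrays and close to each other. The difference was 0.81 (1.75-fold; interval 0.57 to 1.04), with a limma adjusted p of 0.34, the lowest among the members. Over the alternatives its adjusted p ran from 0.035 without T173I replicate 1, the 1 setting in which any member passed, to 0.84 without wild-type replicate 1. Both Pqlc3 and Prcp were already known from earlier results of these data to be among the leading genes, so their place here is a description.

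Cd68, a heavily glycosylated lysosome protein that is abundant in macrophages, read 7.47, 8.08 and 8.26 in wild type and 8.40, 9.08 and 9.63 in T173I. The groups did not overlap, though T173I replicate 1 was only just above wild-type replicate 3. The difference was 1.10 (2.14-fold; interval 0.28 to 1.92; limma adjusted p = 0.45), the largest positive one of any member. Of 10 other macrophage markers 6 were dim, including Ptprc (3.69), Adgre1 (4.65) and Itgam (4.94). The 4 tested ones were Cd14 (7.65), Csf1r (6.38), C1qa (5.68) and Tyrobp (5.38). The differences of the last 3 were -0.78, -0.014 and -0.29. The mean of the 10 was 5.34 to 5.45 on the wild-type arrays and 5.03 to 5.29 on the T173I arrays, and the brightest of them, Cd14, had a difference of -1.37, opposite to Cd68.

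At an unadjusted p under 0.05, these 3 genes, Pqlc3, Prcp and Cd68, were the members that were higher, 3 of 49 beside 4.88% of all genes tested. They were also the 3 members with every T173I array above every wild-type array, beside 7.23% of all genes tested. The lower members were 4 of 49, beside 5.31%. Every T173I array was below every wild-type array in 9 of 49 members, beside 7.95% of all genes tested; these were 6 housekeeping pump subunits, Gaa, Lamp1 and Lamp2.

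Lamp1, the most abundant glycoprotein of the lysosome membrane, read 12.10, 12.14 and 12.25 in wild type and 12.05, 11.59 and 12.00 in T173I. The T173I arrays were all lower, replicates 1 and 3 by small steps, and the difference was -0.28 (interval -0.61 to 0.048). Lamp2, its relative needed for autophagosome fusion, read 10.95, 10.89 and 11.12 in wild type and 10.82, 10.23 and 10.82 in T173I, a difference of -0.36 (interval -0.78 to 0.061). Without T173I replicate 2 the difference was -0.14 for Lamp1 and -0.16 for Lamp2.

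The other membrane proteins had differences of -0.23 (Laptm4a, a small transmembrane protein, and Scarb2, the sorting receptor of glucocerebrosidase), -0.16 (the tetraspanin Cd63), -0.13 (Mcoln1) and -0.082 (Npc1, the cholesterol exporter). Their groups overlapped. The second probe set of Npc1, at a mean of 4.90, had a difference of 0.033.

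Grn, the growth factor precursor progranulin that is delivered to lysosomes, read 11.98, 12.05 and 12.07 in wild type and 12.03, 11.01 and 11.66 in T173I. Replicate 1 was inside the wild-type range and replicate 2 more than 1 unit below the wild-type mean (-1.02); the difference was -0.47, and -0.19 without that array. Npc2, the soluble partner of Npc1, had a difference of -0.10.

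The transcription factors had small differences with overlapping groups. Tfe3 read 8.85, 9.01 and 8.77 in wild type and 8.83, 8.87 and 8.61 in T173I, with a difference of -0.10 (interval -0.36 to 0.15). Tfeb read 5.45, 5.63 and 5.66 in wild type and 5.97, 5.66 and 5.54 in T173I, with a difference of 0.15 (interval -0.17 to 0.46), and its signal was close to the limit for testing. Mitf, a related factor outside the members, had a difference of -0.14, and Tfec was dim at 4.32. RNA levels do not report where these proteins lay in the cell. The 6 members with TCACGTGA in the promoter window had differences of both signs, from -0.46 (Atp6v0d1) and -0.35 (Ctsa) to 0.13 (Atp6v0e) and 0.16 (Ctsd).

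**Figure D4:**
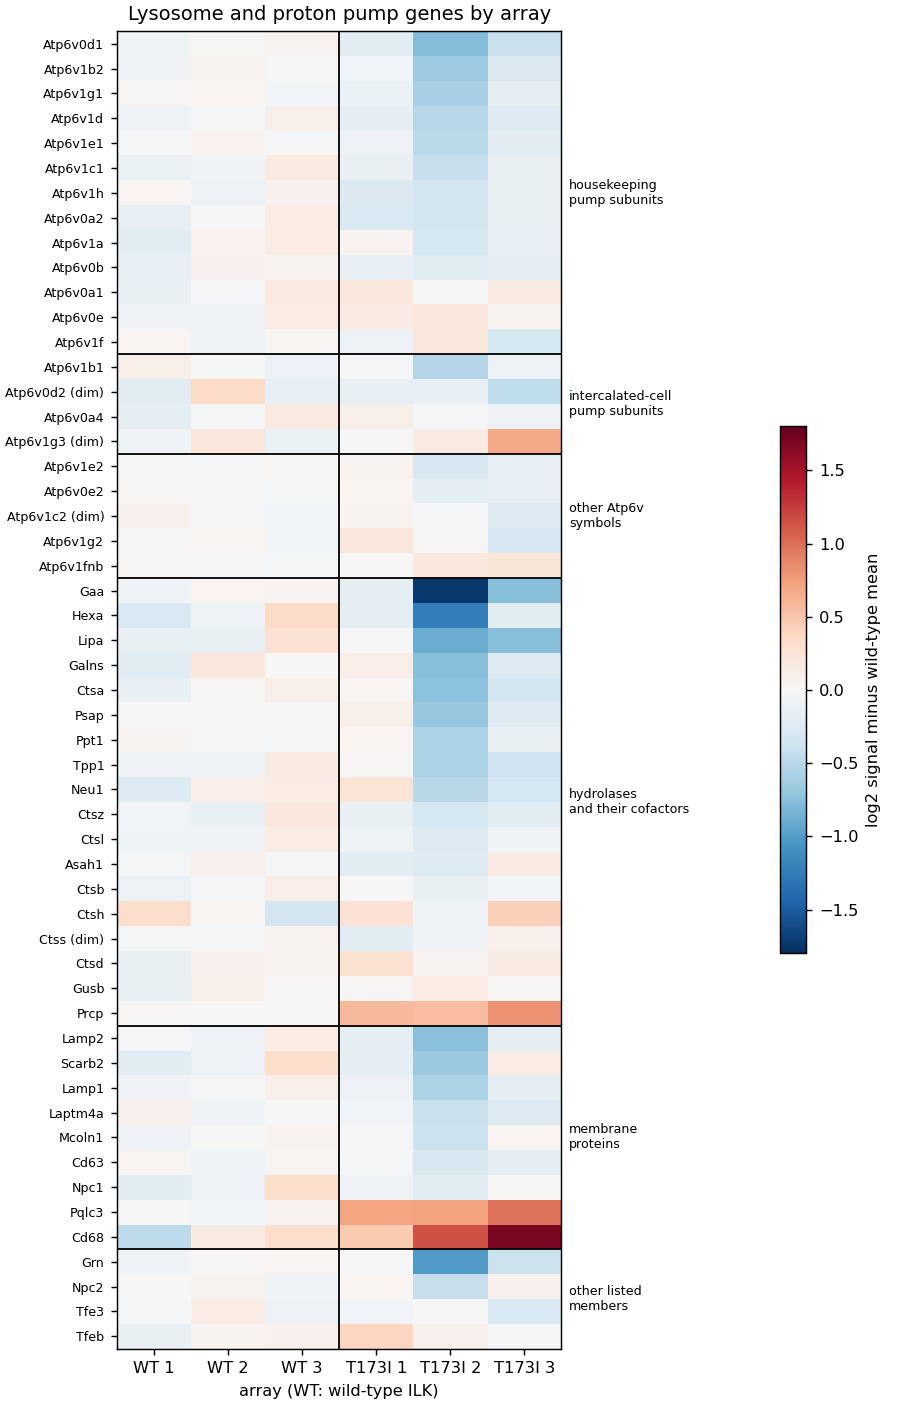
Log2 signal minus the wild-type mean (colour scale, red higher and blue lower) for the 53 members (rows, by role, dim genes marked) on each array (columns). The T173I replicate 2 column is blue for most rows, down to -1.74 for Gaa, and Pqlc3, Prcp and Cd68 are red on all 3 T173I arrays.

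Most members were lowest on the same array. T173I replicate 2 held the lowest of the 6 values in 34 of 49 tested members (69.4%), beside 31.2% of all genes tested. Of the 4 tested Atp6v genes outside the housekeeping and intercalated-cell sets, 2 were lowest on that array. The mean of these 4 was lowest on T173I replicate 3 (-0.1, against -0.057 on replicate 2). Among members with a mean of at least 8.5, 30 of 36 (83.3%) were lowest on T173I replicate 2, beside 33.5% of the 5159 genes tested at that level. The limit of 8.5 was chosen after the values were seen. On T173I replicate 3, 27 of 49 members lay below the wild-type range (55.1%, beside 33.8% of all genes), and on T173I replicate 1, 13 of 49 (26.5%, beside 24.8%). Without T173I replicate 1, 18 members were lower at an unadjusted p under 0.05, beside 12.3% of all genes tested, and 4 were higher, beside 9.83%. In that setting Pqlc3 passed limma's adjusted p of 0.05 as a higher gene, as did 0.684% of all genes tested (1.17% in either direction). Without T173I replicate 2, 2 members were lower at an unadjusted p under 0.05, beside 3.49% of all genes tested. That number was 0 without wild-type replicate 3, beside 4%, and 1 without wild-type replicate 2, beside 3.05%.

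The 4 other Atp6v symbols tested had differences between -0.12 and 0.14, 3 of them negative. Atp6v0e2, a second form of the e subunit, read 9.71 on average and had a difference of -0.10. Atp6v1g2, the G form known from neurons, was at 7.19 (-0.023), Atp6v1e2, the form of the testis, at 5.49 (-0.12), and Atp6v1c2, a C form of kidney and lung, was dim at 5.21. Atp6v1fnb, which matches the symbol pattern as a neighbour of Atp6v1f rather than as a subunit, had a difference of 0.14.

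**Figure D5:**
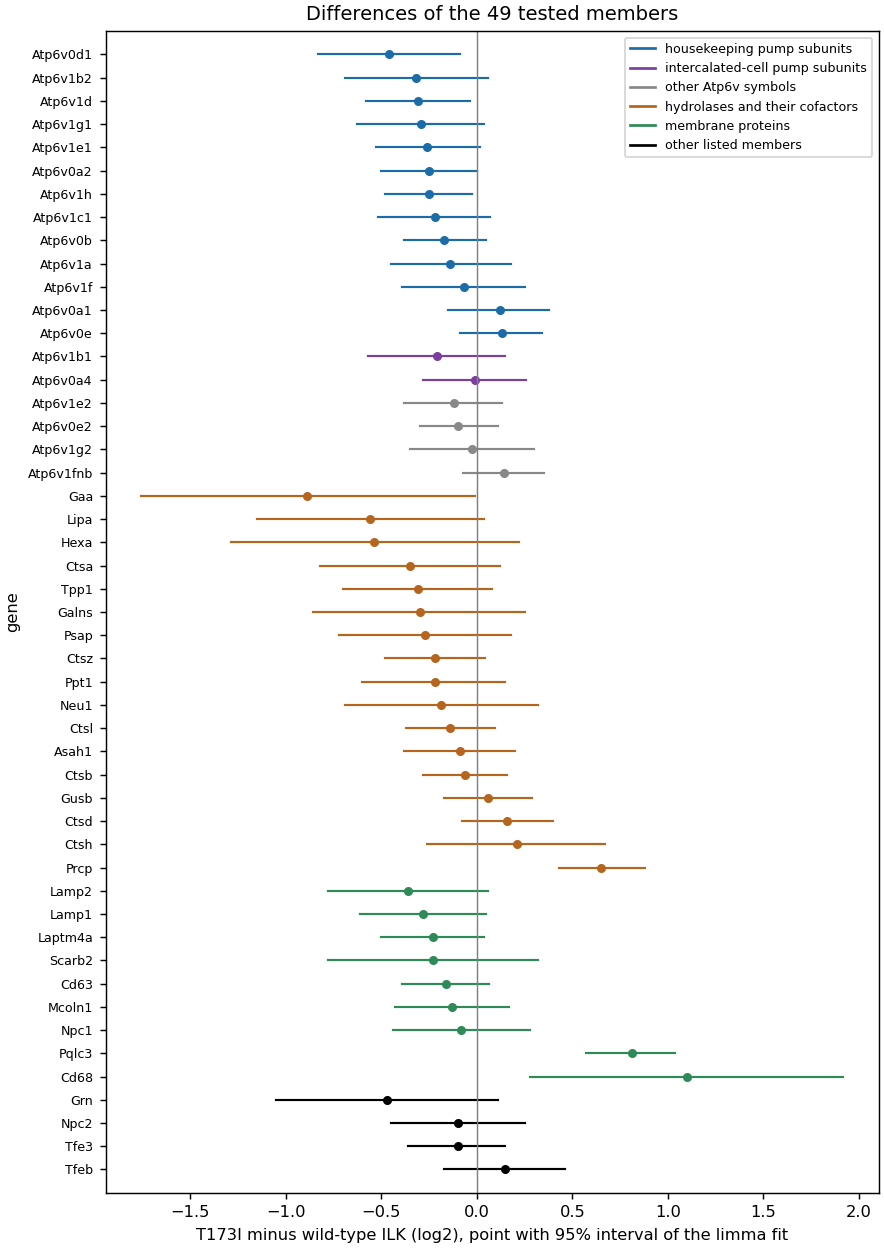
T173I minus wild-type difference of the 49 tested members on the log2 scale (horizontal axis), as points with the 95% interval of the limma fit, coloured by role. Intervals lie wholly below 0 for Atp6v0d1, Atp6v1d, Atp6v1h and Gaa and wholly above 0 for Pqlc3, Prcp and Cd68.

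Lysosome genes outside the members were compared in the same way. In a list of other lysosomal hydrolases, which also holds the activator protein Gm2a and the membrane protein Cln3, 18 of 21 tested had negative differences, with a median of -0.18, and of 15 other lysosome membrane genes 14 did, with a median of -0.14. Without T173I replicate 2 these counts were 12 of 21 and 9 of 15. At an unadjusted p under 0.05, Ctso, a cysteine protease (-1.11), Cln3, which is lost in Batten disease (-0.37), Smpd1, the acid sphingomyelinase (-0.51), and Lgmn, an asparaginyl protease (-0.27), were lower, and Ctsc, dipeptidyl peptidase I (0.31), was higher. Ctso read 8.69, 7.89 and 7.67 in wild type and 6.97, 6.70 and 7.25 in T173I, with no overlap. The groups of Smpd1 overlapped, with 8.83 on T173I replicate 1 and 8.80 on wild-type replicate 3. Of the membrane genes, Tmem175, a proton and potassium channel (-0.47), and Cd164, a sialomucin (-0.39), were lower.

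Of 15 tested accessory and assembly genes of the pump 10 had negative differences, and Oxr1, a TLDc-domain protein that acts on V1, was the 1 gene past an unadjusted p of 0.05 (-0.63). Atp6ap1 and Atp6ap2, accessory subunits, had -0.17 and -0.36, and Tcirg1, the a3 subunit of lysosomes and osteoclasts, had -0.27 at a mean of 9.15. Of 10 genes that tag or sort hydrolases by mannose 6-phosphate, Gnptab, which makes the tag, was higher (0.48) and Gga2, a sorting adaptor, lower (-0.38) at that level. Gnptab read 8.10, 7.91 and 8.11 in wild type and 8.32, 8.67 and 8.57 in T173I. Of 15 genes of the mTORC1 docking machinery 12 had negative differences, and Lamtor4 (-0.29) and Rragd, a Rag GTPase (-1.06), were lower at that level. Rragd read 7.01, 7.21 and 8.24 in wild type and 7.21, 6.09 and 5.99 in T173I, so its groups overlapped. In these lists, 77 genes in all, 0 passed an adjusted p of 0.05 with limma, and at an unadjusted p under 0.05 there were 2 higher and 10 lower. Of all genes tested, 4.88% were higher and 5.31% lower at that level (10.2% in either direction).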

How the data were processed

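Biotin-labelled RNA was read on Affymetrix whole-transcript arrays, and the authors deposited log2 signals from RMA (named in the submitters' processing notes; no version stated there). RMA makes the arrays' distributions alike, so a shift of most transcripts would not be seen. Array number limits the precision.

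Of 41345 probe sets, 23521 had 1 symbol, giving 22180 genes. The difference between T173I and wild type was estimated by limma's lmFit and eBayes (limma 3.58.1 under R 4.3.3) over 6 arrays, two-sided, with Benjamini-Hochberg adjustment over 13308 genes. Levels are given as single values or mean, with n = 3 per group. Members and lists were chosen with earlier results of these data known. Values on every array are given for the 4 intercalated-cell subunits, their housekeeping counterparts, Tfeb, Tfe3, Lamp1, Ctsd and members at an unadjusted p under 0.05; the other genes shown array by array were chosen after their values were seen. Markers of principal cells, fibroblasts, proximal tubule and osteoclasts were also read. The fit was tested on simulated data. Alternatives were no or a stricter filter on dim genes, eBayes with trend and robust, repeated quantile normalization, the mean of all probe sets, array weights, the replicate block and leaving out each array. For genes with several probe sets, the brightest was used. Promoter sequences are RefSeq's; in 519 of 519 overlapping windows of opposite strands the letters were reverse complements.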

Additional observations from a re-analysis of the deposited data

How the results depend on the processing

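The main count of genes with an adjusted p under 0.05 was 0, and leaving out single arrays gave 0 to 156, the latter without T173I replicate 1. Genes at an unadjusted p under 0.05 numbered 1357, from 670 (without wild-type replicate 1) to 2946 (without T173I replicate 1) when single arrays were left out, 795 without wild-type replicate 2, and 2856 with array weights. Members lower at that level numbered 4 of 49, beside 5.31% of all genes tested. When single arrays were left out they numbered 0 (without wild-type replicate 3, beside 4%) to 18 (without T173I replicate 1, beside 12.3%). With array weights 10 members were lower and 4 higher, where 2856 of 13308 genes passed in either direction. The shares of all genes that were lower or higher were not computed for that setting. In the main fit 3 of 49 members were higher, beside 4.88% of all genes tested. When single arrays were left out they ranged from 2 (without wild-type replicate 1) to 4 (without T173I replicate 1, beside 9.83%). Without wild-type replicate 1, 670 of 13308 genes passed in either direction, and the share that was higher was not computed. With array weights, T173I replicates 1 and 2 had the lowest weights, 0.406 and 0.364. When single arrays were left out, the median difference ranged from -0.29 to -0.15 for housekeeping subunits, from -0.35 to -0.065 for hydrolases and from -0.23 to -0.021 for membrane proteins, each closest to 0 without T173I replicate 2. With array weights the median difference of the membrane proteins was -0.034, and 5 of 9 were negative. In that setting 11 of 13 housekeeping subunits, 12 of 17 hydrolases and 36 of all 49 tested members were negative. Outside the members, 14 of 21 other hydrolases and 9 of 15 other lysosome membrane genes were. Among the 16 tested members set by rule for array-by-array values, Atp6v0a4 changed sign when single arrays were left out. Its differences ran from -0.09 to 0.079. Outside these 16, Atp6v1f (-0.20 to 0.05), Atp6v1g2 (-0.14 to 0.12) and Ctsb (-0.11 to 0.00033) also changed sign. So did Gusb (-0.011 to 0.12), Npc1 (-0.19 to 0.076) and Npc2 (-0.19 to 0.059). No member passed the adjusted threshold except Pqlc3 without T173I replicate 1. Repeating quantile normalization gave 5 lower and 3 higher members, beside 1407 genes in either direction. The median of all genes tested was then 0.00081 against -0.011. The causes were not tested.

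The labels do not say that same-numbered arrays were paired, so the replicate block was used only as an alternative. Deviations of same-numbered arrays from their group means had correlations of 0.0488, 0.0667 and 0.0477 over 13308 genes. Arrays with different numbers were not compared in this way, so these correlations do not settle whether the arrays were paired. With the replicate block 1508 genes in either direction had an unadjusted p under 0.05, among them 6 lower and 3 higher members. After adjustment 0 genes passed.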

Other observations

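Marker genes of other cell types were at low signal in both groups. The 8 fibroblast markers averaged 5.12 to 5.27 on the wild-type arrays and 5.11 to 5.21 on the T173I arrays, and 5 of them were dim. The 5 proximal tubule markers averaged 5.28 to 5.32 and 5.15 to 5.38, with 3 dim, and the 6 osteoclast markers averaged 5.17 to 5.36 and 5.13 to 5.37, with 3 dim. The 13 intercalated-cell markers averaged 5.25 to 5.39 and 5.3 to 5.38. The 12 principal-cell markers averaged 6.01 to 6.07 in wild type and 5.69 to 5.99 in T173I, with 5.99, 5.69 and 5.75 on T173I replicates 1 to 3. None of the 53 members had equal values on all 3 arrays of a group, while 8 of the 53 showed the same value on some pair of arrays.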
